A study of Arabidopsis thaliana with 27 samples.

Results

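AT3G14250 and AT2G05400 are a pair of Arabidopsis thaliana genes whose RNA was high in zygotes from crosses between the accessions Columbia (Col) and Landsberg erecta (Ler) and was listed at 0 in zygotes of Col alone. They are 2 of the 24607 genes listed in at least 1 of 27 RNA sequencing libraries, and they were chosen on those measured values: high in the hybrid zygotes and 0 in the Col zygotes, a gene missing from a library's list being taken as 0. The hybrid against Col difference is therefore given below as a description, with no test. No group holds zygotes of Ler alone, so expression shared with Ler zygotes and expression particular to hybrids cannot be told apart. Tests were made only among the hybrid groups, whose differences from each other did not choose the genes.

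The series follows the first stages after fertilization in 9 groups of 3 libraries each. The Col groups were the mature egg cell (EC), the zygote at 14 hours after pollination (Zy14) and at 24 hours (Zy24), the 1-cell embryo (1C) and the 32-cell embryo (32C); the series' design text calls the younger zygotes spherical and the older ones elongated. Hybrid zygotes were collected at the same hours from both directions of the cross: LZy14 and LZy24 had a Ler mother and a Col father, and CZy14 and CZy24 had a Col mother and a Ler father. Every hybrid zygote therefore carried 1 Col and 1 Ler genome, and the labels name no mutation or treatment in any group. Plants grew in a greenhouse, and for all libraries mRNA was captured on beads and amplified with a SMART-Seq low input kit. The labels do not say how many cells went into a library or whether replicates came from separate plants, so the p-values below measure the spread between libraries, which may be technical.

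Ubiquitin is a small protein that cells attach to other proteins as a signal, often one for degradation by the proteasome. RING and U-box proteins are ubiquitin ligases or parts of them: they bring a ubiquitin-carrying enzyme to its substrate, while ubiquitin-specific proteases, classed as peptidase family C19, take ubiquitin off again. Protein turnover by this route is one of the ways in which a fertilized egg replaces maternal products while its own genome becomes active.

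In the RefSeq annotation of assembly TAIR10.1, AT3G14250 lies on the minus strand of chromosome 3, has 1 transcript of 949 bp and encodes 303 residues. Its product is named a RING/U-box superfamily protein, with C6HC-type and RING-type zinc fingers noted. AT2G05400 lies on the plus strand of chromosome 2, has 3 transcripts of 1243 to 1415 bp and encodes up to 217 residues. Its product is named a ubiquitin-specific protease family C19-related protein. For both genes the annotation's notes give the egg cell as the place of expression. No protease domain is noted for AT2G05400, and its closest proteins are TRAF-like, as described below, so no enzyme activity is assumed for it here. No coordinates or sequences are given, since the submitters' notes name the build TAIR10 and the sequences at hand belong to TAIR10.1.

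Values are the deposited FPKM (fragments per kilobase of transcript, with the mapped total as its base), a level scaled for gene length and library size. Each library listed 14902 to 20062 genes. The smallest steps between low values, read over 10444 genes after the values had been seen, put 1 fragment per kb at 0.04 to 0.084 FPKM. In the Col zygote libraries 1 fragment on AT3G14250 would be worth 0.0421 to 0.0759 FPKM, and on AT2G05400 0.0322 to 0.0579 FPKM, so a value of 0 means fewer fragments than that. Markers of the zygote and embryo (RKD4, WOX8, WOX9, WOX2 and SSP) were above 0 in every library of all 6 zygote groups, and their summed level was 657 to 1448 FPKM there. The 5 EC1 egg cell genes summed to 7055 to 16597 FPKM in the 14 hour groups of hybrids and Col. At 24 hours they summed to 17.5 to 35.7 FPKM in Zy24, 39.5 to 43.5 FPKM in CZy24 and 54.3 to 73.5 FPKM in LZy24, 3 ranges that do not overlap. EC1.1, EC1.2, EC1.3 and EC1.4 were at 0 in every Zy24 and CZy24 library, so those sums come from the 1 remaining gene. In LZy24 EC1.1, EC1.2 and EC1.3 were at 0 in every library, so its sum comes from the 2 remaining genes. Synergid markers summed to 0 to 0.47 FPKM in the hybrids and to 517, 0 and 0.45 FPKM in Zy14 replicates 1, 2 and 3, where both genes were at 0. Sperm and pollen markers summed to 12.2 to 20.4 FPKM in LZy14, 4.77 to 13.4 in CZy14 and 3.81 to 7.62 in Zy14, and to 4.54 to 16.1 in LZy24, 0.13 to 13.8 in CZy24 and 0 to 0.35 in Zy24. The part of these markers in the levels of the pair was not tested. Between fewer cells with the transcript and less of it per cell, these bulk libraries cannot tell. One hybrid library, CZy14 replicate 3, stood apart from its group, and results that rest on it are also given without it.

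AT3G14250 was listed at 0 in all 15 Col libraries: the 3 each of EC, Zy14, Zy24, 1C and 32C. In the 12 hybrid libraries it ranged from 107 to 911.5 FPKM with a median of 588, an 8.52-fold range. It ranked between 120th and 1583rd among the genes of its library, at or above the 91.2nd percentile in each. The hybrid and Col zygote libraries did not overlap, as the choice of the gene required.

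In LZy14, AT3G14250 stood at 585, 489 and 515 FPKM in replicates 1, 2 and 3 (mean 529.7 ± 49.5, SD, n = 3). In LZy24 it stood at 799.6, 618 and 591 FPKM (mean 669.8 ± 113, SD, n = 3). All 3 LZy24 values lay above all 3 LZy14 values, by a small margin. In CZy14 it stood at 322, 302 and 107 FPKM (mean 244 ± 119, SD, n = 3), so replicate 3 was far below the other 2. In CZy24 it stood at 911.5, 862 and 896 FPKM (mean 889.9 ± 25.1, SD, n = 3). CZy24 was the highest and the tightest of the 4 groups and CZy14 the lowest and the widest, and none of the groups that share a cross or an hour overlapped. How many of all genes show groups that do not overlap is not given here, so this is only a description.

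AT2G05400 was listed at 0 in the 12 libraries of Zy14, Zy24, 1C and 32C. In EC, which the choice of the genes did not use, it was at 0.77, 0 and 2.92 FPKM, so 2 of 3 egg cell libraries held a trace of it. In the 12 hybrid libraries it ranged from 29 to 752.5 FPKM with a median of 153, a 25.9-fold range. It ranked between 94th and 5929th among the genes of its library, from the 67.1st to the 99.4th percentile.

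In LZy14, AT2G05400 stood at 541, 752.5 and 613 FPKM (mean 635 ± 108, SD, n = 3), the highest of the 9 groups. In LZy24 it stood at 135, 132 and 103 FPKM (mean 123 ± 18.05, SD, n = 3). The lowest LZy14 library was thus well above the highest LZy24 library. In CZy14 it stood at 91.8, 94.2 and 29 FPKM (mean 71.7 ± 37.0, SD, n = 3), with replicate 3 again the low one. In CZy24 it stood at 171, 199 and 206 FPKM (mean 192 ± 18.3, SD, n = 3). Here too the groups that share a cross or an hour did not overlap, again with no share over all genes to set beside it.

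**Figure D1:**
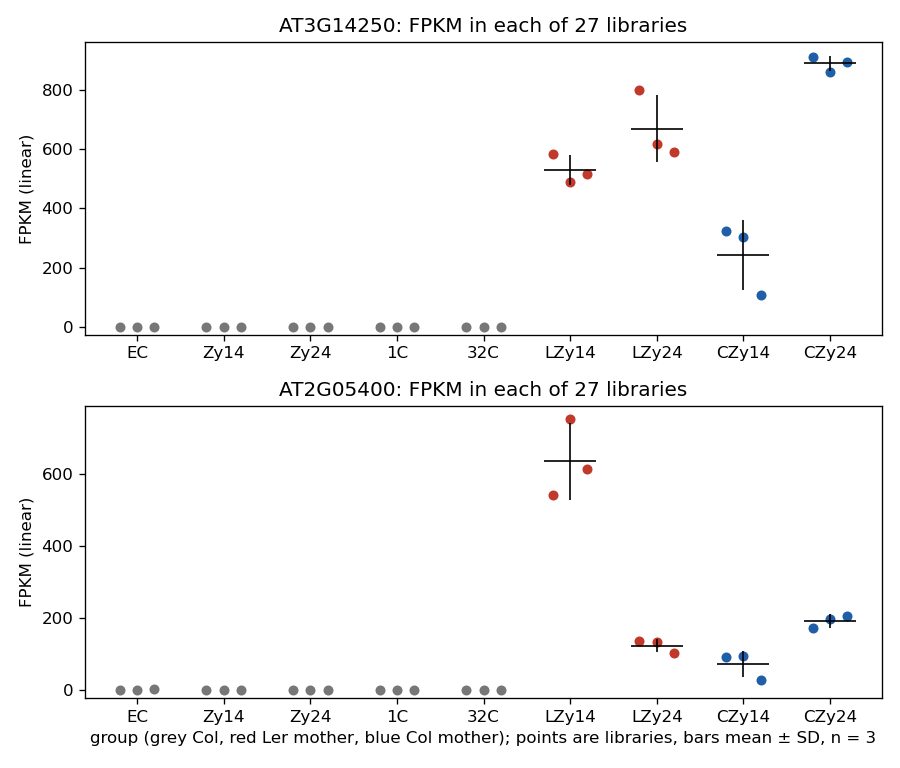
FPKM (linear axis) of AT3G14250 (top) and AT2G05400 (bottom) in each of 27 libraries by group; points are libraries, horizontal lines are means and vertical lines are SD (n = 3), drawn where all 3 libraries are above 0. Both genes sit at or near 0 in the 5 Col groups; CZy24 is the highest group for AT3G14250 and LZy14 for AT2G05400.

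The order of the group means was CZy24, LZy24, LZy14, CZy14 for AT3G14250 and LZy14, CZy24, LZy24, CZy14 for AT2G05400. For AT3G14250 the neighbours CZy24 and LZy24, and LZy24 and LZy14, did not pass the test described next, while LZy14 and CZy14 did. For AT2G05400 the neighbours CZy24 and LZy24 did not pass it. The neighbours LZy14 and CZy24, and LZy24 and CZy14, differ in both cross and hour and were not tested.

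Differences among the hybrids were tested with limma on log2(FPKM + 1) in 1 fit of the 12 hybrid libraries, with Benjamini-Hochberg adjustment over the 17912 genes that had at least 1 FPKM in at least 3 of them. Calls required an adjusted p below 0.05 together with a log2 difference of 1 or more in size, and only called changes are described as a rise or a fall. Both genes passed the filter on low values, as genes chosen for high values in these libraries would.

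At 14 hours both genes were higher with a Ler mother than with a Col mother. AT2G05400 was 8.87-fold higher by group means in LZy14 than in CZy14, a difference of 3.30 ± 0.35 on the log2 scale (SE; 95% interval 2.54 to 4.06; limma adjusted p = 0.000118), and all 3 LZy14 libraries were above all 3 CZy14 libraries. Only 33 of the 17912 genes had a larger positive difference. AT3G14250 was 2.18-fold higher by group means, a log2 difference of 1.27 ± 0.32 (SE; 95% interval 0.58 to 1.96; limma adjusted p = 0.0165), also in 3 of 3 libraries. Both were called, against 12.7% of all genes tested (2271 of 17912, in either direction) and 4.76% called higher.

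The call of AT3G14250 at 14 hours depended on single libraries and on the fit. Without CZy14 replicate 3 the log2 difference was 0.76 (limma adjusted p = 0.00256), under the size required. Without LZy14 replicate 3 it was 1.29 with an adjusted p of 0.0502, and in a limma fit of LZy14 and CZy14 alone it was 1.27 with an adjusted p of 0.0868. The call of AT2G05400 held in every one of these settings, with 2.75 without CZy14 replicate 3. The count over all genes was 1332 without LZy14 replicate 3 and 1305 without CZy14 replicate 2.

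CZy14 replicate 3 held both genes at about the same fraction of the other CZy14 libraries: 0.343 of their mean for AT3G14250 and 0.312 for AT2G05400. Over 14554 genes the same ratio had a median of 0.939, with an interquartile range from 0.659 to 1.38. Its log2(FPKM + 1) values correlated with those of replicates 1 and 2 at Pearson's r of 0.926 and 0.919 across genes, against 0.992 between those 2. Replicate pairs of all groups spanned 0.906 to 0.992, with 0.923 between LZy14 replicates 1 and 2, so an r this low was not particular to CZy14 replicate 3. In CZy14 replicate 3, marker sums differed from those of its group as follows. The summed level of 5 sperm and pollen markers was 13.4 FPKM in replicate 3 and 6.02 and 4.77 FPKM in replicates 1 and 2. That of 4 central cell and endosperm markers was 12 FPKM against 2.27 and 1.99 FPKM, and that of 4 seed coat markers was 2 FPKM against 0.13 and 0 FPKM. For these 2 lists the Col library Zy14 replicate 3 stood at 12.55 and 1.48 FPKM. The zygote and embryo sum of CZy14 replicate 3 was the lowest of its group, 986 against 1234 and 1319 FPKM. Its egg cell sum was the highest, 14681 against 12846 and 9392 FPKM. The part of these sums in the low values of both genes was not tested.

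At 24 hours the order of the crosses was the opposite, and neither difference was called. AT3G14250 was 1.33-fold higher by group means in CZy24 than in LZy24 (LZy24 minus CZy24 on the log2 scale -0.42 ± 0.32, SE; 95% interval -1.11 to 0.26; limma adjusted p = 0.344). AT2G05400 was 1.55-fold higher in CZy24 (log2 difference -0.64 ± 0.35, SE; 95% interval -1.40 to 0.12; limma adjusted p = 0.190). All 3 CZy24 libraries were above all 3 LZy24 libraries for each gene, and the share of all genes with such a separation is not given. Fitted on those 6 libraries alone, limma's adjusted p was 0.0187 for AT3G14250 and 0.00937 for AT2G05400, with differences still under the size required. In the fit of the hybrids without CZy14 replicate 3, limma's adjusted p was 0.0114 and 0.00547, with the differences unchanged. At this hour 24.5% of all genes tested were called.

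Averaged over both hours, AT2G05400 was higher with a Ler mother by 1.33 ± 0.25 on the log2 scale (SE; limma adjusted p = 0.00239) and was called. AT3G14250 differed by 0.42 ± 0.22 (SE; 95% interval -0.06 to 0.91; limma adjusted p = 0.174) and was not. Without CZy14 replicate 3 the differences were 1.06 and 0.17. The share of all genes called in this contrast was 14.4% in either direction and 6.86% higher.

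The change from 14 to 24 hours was not the same in both crosses. With a Col mother both genes rose: AT3G14250 by 2.02 ± 0.32 on the log2 scale (SE; limma adjusted p = 0.000194), 3.65-fold by group means, and AT2G05400 by 1.58 ± 0.35 (SE; limma adjusted p = 0.00222), 2.67-fold by group means. The groups did not overlap for either gene. In this contrast 45.2% of all genes tested were called, 20% higher and 25.2% lower, so a call here is common. Without CZy14 replicate 3 the rise of AT2G05400 was 1.03 on the log2 scale and that of AT3G14250 was 1.51, and both calls held.

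With a Ler mother AT2G05400 fell between 14 and 24 hours by 2.35 on the log2 scale (SE 0.35; limma adjusted p = 0.000165), and its LZy14 mean was 5.15 times its LZy24 mean. AT3G14250 did not pass the test in the same libraries: its log2 difference was 0.33 ± 0.32 (SE; 95% interval -0.36 to 1.02; limma adjusted p = 0.415), or 1.26-fold by group means. CZy14 replicate 3 is not in this contrast but enters the spread of the shared fit. Without it the difference of AT3G14250 was unchanged and under the size required, with an SE of 0.11 (limma adjusted p = 0.0260). Under quantile normalization of all 12 libraries the difference of AT3G14250 had the opposite sign, -0.29. In this contrast 38% of all genes tested were called, 18.3% higher and 19.8% lower. The summed level of the 4 central cell and endosperm markers was 0.49 to 6.58 FPKM in LZy14 and 11.7 to 16 FPKM in LZy24, with PHE1 at 0 in both and FIS2 at 0 in LZy14, and in CZy24 it was 3.66 to 9.58 FPKM. Its part in the change of AT2G05400 was not tested.

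The difference between the crosses itself changed with the hour for both genes. The LZy minus CZy difference was lower at 24 than at 14 hours by a log2 change of -3.93 ± 0.49 for AT2G05400 (SE; limma adjusted p = 0.000306) and of -1.69 ± 0.45 for AT3G14250 (SE; limma adjusted p = 0.0151). Both were called, against 24.8% of all genes tested in either direction and 11.1% called lower. For AT2G05400, 106 of the 17912 genes had a more negative change. Without CZy14 replicate 3 the changes were -3.38 and -1.18, and both calls held.

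**Figure D2:**
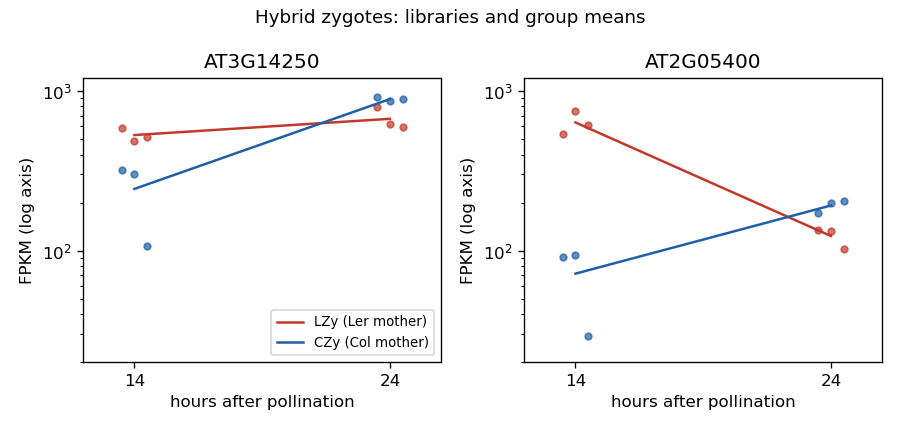
FPKM (log axis) of AT3G14250 (left) and AT2G05400 (right) in hybrid zygotes by hours after pollination; points are libraries and lines join the group means of LZy (red, Ler mother) and CZy (blue, Col mother). The lines cross in both panels: LZy is higher at 14 hours and CZy at 24 hours, and AT2G05400 falls in LZy from 635 to 123 FPKM while it rises in CZy from 71.7 to 192 FPKM.

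The genes did not keep a fixed ratio to each other. The FPKM of AT3G14250 divided by that of AT2G05400 was 0.650 to 1.08 in the 3 LZy14 libraries, so these transcripts were near equal there. The ratio was 3.20 to 3.69 in CZy14, 4.68 to 5.90 in LZy24 and 4.34 to 5.34 in CZy24. LZy14 stood apart from the other 3 groups, and CZy14 replicate 3, low for both genes, had the highest ratio of its group. Across the 12 hybrid libraries, which share their groups, log2(FPKM + 1) of the genes had a Pearson's r of 0.544.

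The pattern that chose the genes was rare. Of 24607 genes, 10505 had at least 1 FPKM in all 12 hybrid libraries, and 9 of these were listed at 0 in all 6 Col zygote libraries, which is 0.0366% of all genes. The mirror image, at least 1 FPKM in all 6 Col zygote libraries and 0 in all 12 hybrid libraries, was met by 0 genes. By design the mirror image is harder to meet, since every hybrid carried a Col genome and it asks for 0 in 12 libraries, not 6. Its count is therefore not comparable with the 9. AT3G14250 and AT2G05400 had the highest and the second highest minimum among the 9, at 107 and 29 FPKM. With a floor of 5 FPKM in the hybrids the count was 5, and with any value above 0 it was 14, with 2 genes in the mirror image.

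The next of the 9 were AT4G19240, an uncharacterized protein with 23.5 to 94.1 FPKM in the hybrids, and AT1G12340 of the Cornichon family, with 12.5 to 42.5 FPKM. Cornichon proteins are known from animals and yeast as cargo receptors that carry membrane proteins out of the endoplasmic reticulum. AT1G12340 was above 0 in all 9 EC, 1C and 32C libraries, up to 2.84 FPKM, and so was at 0 in Col at the zygote stages but not throughout. The pseudogene AT1G24370 had 6.86 to 35.7 FPKM, AT1G27570, a phosphatidylinositol 3- and 4-kinase family protein, had 4.29 to 32.0 FPKM, and AT1G24388, an uncharacterized protein, had 4.37 to 26 FPKM. The lowest were AT1G63540, a hydroxyproline-rich glycoprotein family protein with 2.28 to 68.1 FPKM, and the pseudogene AT5G20750 with 2.11 to 45.8 FPKM. The highest value of any of these 7 genes was 94.1 FPKM, below the lowest hybrid value of AT3G14250.

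Of the 9 genes, 6 were listed at 0 in all 9 EC, 1C and 32C libraries, which the choice did not use, against 12.5% of all listed genes (3078 of 24607). AT3G14250 is one of the 6 and AT2G05400, with its egg cell traces, is not. The 9 were selected for 0 in Col zygotes and the other genes were not, so these shares are only set side by side. Just outside the pattern were AT2G23148, SADHU4-1 and AT5G48790, whose highest Col zygote values were 0.12, 0.04 and 0.28 FPKM.

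**Figure D3:**
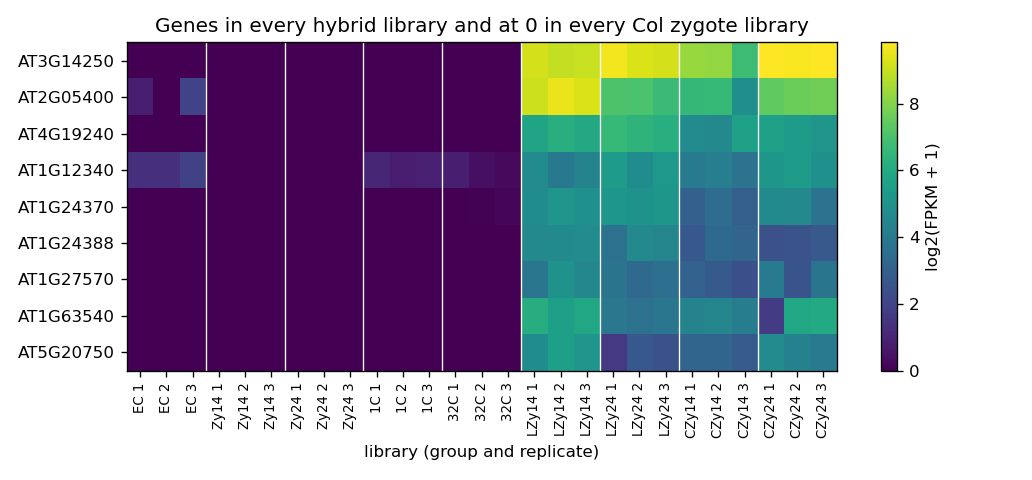
log2(FPKM + 1) of the 9 genes with at least 1 FPKM in all 12 hybrid libraries and 0 in all 6 Col zygote libraries, in each of 27 libraries; darker is lower. AT3G14250 and AT2G05400 (top rows) are the brightest in most hybrid libraries, and AT1G12340 is above 0 in EC, 1C and 32C.

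Other genes of the pattern were also higher in LZy14 than in CZy14. At 14 hours limma called 6 of the 9 higher with a Ler mother and 0 lower (7 and 0 at an unadjusted p under 0.05), with a median log2 difference of 1.60 against -0.03 over all genes tested, of which 4.76% were called higher and 7.92% lower. The other called genes were AT1G24370 (1.77), AT1G24388 (1.60), AT1G27570 (1.74) and AT5G20750 (2.07). At 24 hours 1 was called higher and 1 lower, AT1G24388 (1.69) and AT5G20750 (-2.11), where 24.5% of all genes were called. From 14 to 24 hours in CZy limma called 5 of the 9 higher and 0 lower (the same numbers at an unadjusted p under 0.05), with a median of 1.18 against -0.09 over all genes, of which 20% were called higher and 25.2% lower. In LZy 2 were called lower, AT2G05400 and AT5G20750 (-2.88), while 18.3% of all genes were called higher and 19.8% lower. The reciprocal difference changed in 3 of the 9, all downward, with AT5G20750 (-4.18) beside AT3G14250 and AT2G05400. Over all genes it changed in 24.8%, with 11.1% called lower. When CZy14 replicate 3 was left out, the counts were again 6 at 14 hours, 5 in CZy and 3 for the reciprocal difference, but at 14 hours AT3G14250 was no longer among the 6 and AT4G19240 was (1.27). These genes were picked for values in the same libraries, so the counts describe them and are no independent evidence. For the counts at an unadjusted p, no share of all genes is given.

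Ranked by Pearson's r of log2(FPKM + 1) over the 27 libraries, the genes most like AT3G14250 were AT4G19240 (0.987), AT1G24370 (0.984), AT3G18535 (0.978), AT2G05400 (0.976) and AT1G12340 (0.971). Those most like AT2G05400 were AT1G27570 (0.981), AT3G14250 (0.976), AT1G24370 (0.973), AT3G18535 (0.972) and AT4G19240 (0.967). These values hold the contrast between 12 high and 15 low libraries, which chose the pair: within the 12 hybrid libraries AT4G19240 and AT3G14250 had an r of 0.277. AT3G18535, annotated as a tubulin-tyrosine ligase, an enzyme type that adds a tyrosine to tubulin, is the one gene of both lists outside the 9: it was above 0 in all 15 Col libraries, at up to 2.67 FPKM, and at 7.46 to 34.8 FPKM in the hybrids. Within the 12 hybrid libraries its r was 0.881 with AT3G14250 and 0.726 with AT2G05400.

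The genes next to the pair on the chromosome did not share the pattern. Of the 5 protein coding genes on either side of AT3G14250, 4 of 10 stayed below 10 FPKM in every library. RAP2.2, a transcription factor of the ethylene response family, had group means from 27.8 FPKM in CZy24 to 118 FPKM in Zy14, and PAE2, a subunit of the proteasome core, from 138 FPKM in CZy14 to 296 FPKM in EC. FAB1B, a kinase that phosphorylates phosphatidylinositol 3-phosphate, had group means from 3.68 FPKM in 1C to 27.7 FPKM in LZy14. Around AT2G05400, 4 of 10 neighbours were listed in no library and 9 of 10 stayed below 10 FPKM in every one.

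The exception was AT2G05420, a TRAF-like family protein that lies 2 genes downstream of AT2G05400 and is one of its nearest relatives. It stood at 260, 287 and 175 FPKM in Zy14 and at 245, 186 and 221 FPKM in Zy24, where AT2G05400 was at 0. In the hybrids it stood at 149, 152 and 152 FPKM in LZy14, 76.8, 81.4 and 78.3 FPKM in LZy24, 206, 204 and 187 FPKM in CZy14 and 158, 129 and 124 FPKM in CZy24. All 12 hybrid values lay within or below the range of EC and the Col zygotes. AT2G05420 was lower in LZy14 than in CZy14, the opposite order to AT2G05400, with a log2 difference of -0.39 ± 0.12 (SE; limma adjusted p = 0.0374) that was under the size required. In 32C it was at 5.06, 5.73 and 2.88 FPKM.

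AT2G05410, a MATH domain/coiled-coil protein, lies between them and never passed 4.4 FPKM. It was listed in 12 libraries, among them all 3 of LZy14, of LZy24 and of CZy14. The others were CZy24 replicate 1 (0.15 FPKM) and the Col zygote libraries Zy14 replicates 1 and 2 (2.48 and 1.55 FPKM). CZy14 replicate 3, the lowest hybrid library for AT2G05400, was its highest at 4.4 FPKM.

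**Figure D4:**
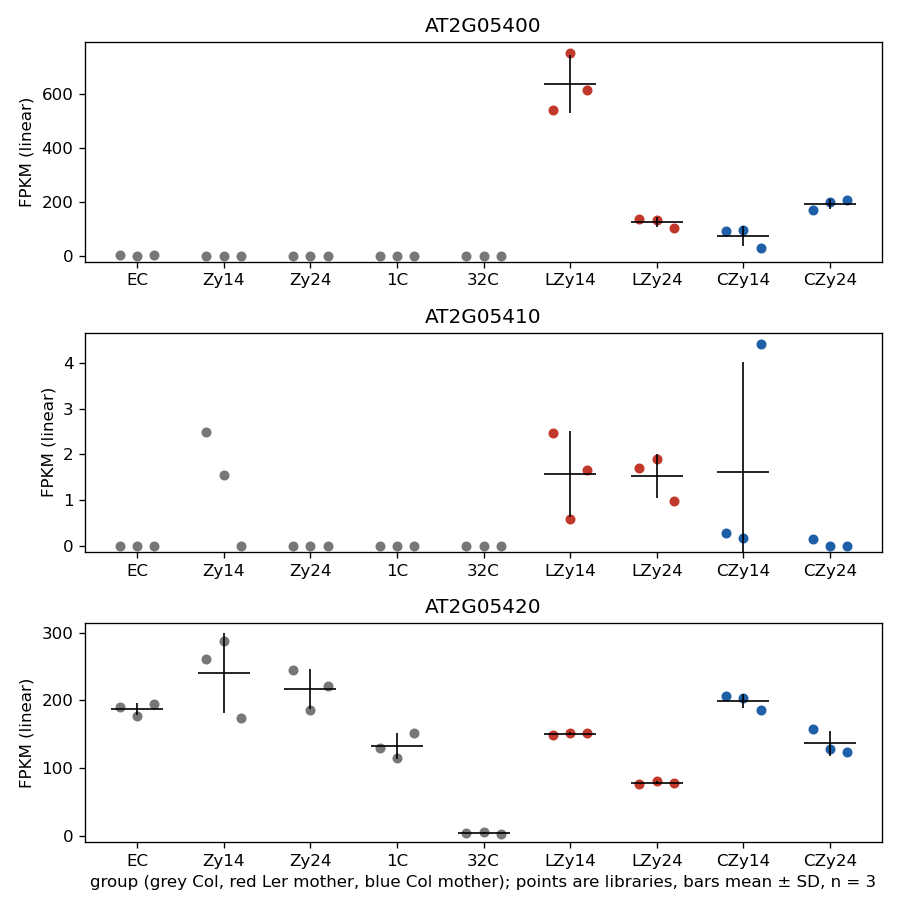
FPKM (linear axes of different range) of AT2G05400, AT2G05410 and AT2G05420, adjacent on chromosome 2, in each of 27 libraries by group; points are libraries, horizontal lines are means and vertical lines are SD (n = 3), drawn where all 3 libraries are above 0. AT2G05420 is present in every group with its lowest values in 32C, AT2G05410 stays at or below 4.4 FPKM, and AT2G05400 is above 2.92 FPKM only in hybrids.

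By protein, AT2G05400 matched AT2G05410 at 71.0% identity over 207 residues and AT2G05420 at 68.7% over 211 residues. The next matches were the TRAF-like AT3G58360 (54.8%), AT3G58270 (49.4%) and RTM3 (51.9%), the last a gene that restricts the movement of tobacco etch virus. TRAF-like, or MATH, domains bind partner proteins, in some families to bring substrates to ubiquitin ligases. At the transcript level AT2G05400 was 82.9% identical to AT2G05410 over 898 bases and 77.6% to AT2G05420 over 947 bases. The submitters' notes name TopHat2 and RSEM, but the sources used here do not say how fragments matching more than 1 of these genes were divided. Fragments of the hybrids were also read against a Col genome. The level of AT2G05400 carries both uncertainties, and the hybrid levels of AT3G14250 carry that of the Col genome. Within the TAIR10.1 annotation AT3G14250 had no close copy, and copies in the Ler genome were not searched. Its best protein match was AT3G53690, a RING/U-box protein with 46.2% identity over 197 residues. The best transcript match covered 263 bases at 69.2%. AT3G53690 was listed in all 27 libraries, with group means from 15.0 FPKM in 32C to 54.1 FPKM in Zy24.

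Families with related annotation were read beside the pair. The pattern, which 0.0366% of all listed genes met, was met by 0 of 27 listed ubiquitin-specific proteases with a UBP symbol, 0 of 14 listed ARIADNE ligases, which carry RING-type zinc fingers in a RING between RING arrangement, 0 of 76 listed genes whose product names MATH or TRAF-like, and 1 of 8 listed C19-related genes, AT2G05400 itself. With so rare a pattern, counts of 0 in lists of these sizes are no result about the families.

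The TRAF-like gene AT1G31380, named here after its values were seen, came close to the pattern. It stood at 61.0, 71.7 and 67.6 FPKM in LZy14, 170.6, 158 and 167 FPKM in LZy24, 8.81, 3.48 and 0 FPKM in CZy14 and 208, 177 and 166 FPKM in CZy24. In Zy14 it was at 0.76, 0.25 and 0 FPKM, and in Zy24, EC, 1C and 32C it was listed at 0 in every library. It missed the pattern through those 2 Zy14 values and through CZy14 replicate 3, the library that was also lowest for AT3G14250 and AT2G05400. It was higher in LZy14 than in CZy14 by 4.26 ± 0.58 on the log2 scale (SE; limma adjusted p = 0.000546), rose in CZy by 5.70 ± 0.58 (SE; limma adjusted p = 7.04e-06), and its reciprocal difference changed by -4.41 ± 0.82 (SE; limma adjusted p = 0.00258). Without CZy14 replicate 3 these were 3.35, 4.80 and -3.50, and all 3 calls held. In LZy its difference was 1.299 (limma adjusted p = 0.0823) and was not called, and without that library it was called (adjusted p = 0.000849).

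Of 26 UBP genes tested, 1 was called higher and 1 lower in LZy14 than in CZy14 (UBP18 1.36 and UBP17 -1.74 on the log2 scale), and 0 of 12 ARIADNE genes were called by limma, of which 1 had an unadjusted p under 0.05. The medians were 0.00 and -0.23, beside -0.03 over all genes. Of 58 MATH or TRAF-like genes, 4 were called higher and 8 lower, with a median of -0.08. Over all genes tested 4.76% were called higher and 7.92% lower in this contrast, and no share at the unadjusted p is given.

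From 14 to 24 hours, 2 UBP genes were called higher and 6 lower in CZy, and 0 higher and 5 lower in LZy, where limma gave 0 higher and 14 lower at an unadjusted p under 0.05. For the ARIADNE genes limma called 0 higher and 8 lower in CZy (0 and 10 at an unadjusted p under 0.05), where both AT3G14250 and AT2G05400 rose, and 1 higher and 5 lower in LZy. The falls included ARI3 (-3.40 on the log2 scale in CZy) and ARI7 (-1.18 in CZy and -1.296 in LZy), and the UBP genes that rose in CZy were UBP4 (1.62) and UBP18 (1.301). Medians in CZy were -0.45 for UBP and -1.24 for ARIADNE genes, beside -0.09 over all genes. MATH or TRAF-like genes were called in both directions, 16 higher and 13 lower of 58 in CZy and 17 and 13 in LZy. Over all genes 20% were called higher and 25.2% lower in CZy, and 18.3% and 19.8% in LZy, and the share of UBP genes called lower was near these. The share of all genes at an unadjusted p under 0.05 is not given, so counts at that p have no background here. The falls in CZy numbered 8 for UBP and 9 for ARIADNE genes without CZy14 replicate 3.

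Among the 7 C19-related genes tested, AT2G05400 was the 1 called higher in LZy14 than in CZy14 and AT3G58230 the 1 called lower, by a log2 difference of -4.57 (limma adjusted p = 0.000139). In CZy between 14 and 24 hours AT2G05400 rose with AT1G16860 (1.57) and AT3G58320 (3.07), while AT3G58230 fell by 5.91 on the log2 scale. In LZy 0 of the 7 were called higher and 2 lower, AT2G05400 among them. Over all genes tested, 4.76% were called higher and 7.92% lower at 14 hours. The shares were 20% and 25.2% in CZy and 18.3% and 19.8% in LZy. With 7 genes, AT2G05400 itself included, these counts are no result about the family. AT3G58230 reached 152 FPKM in Col zygotes and 67.4 FPKM in hybrids, with a hybrid median of 0.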

How the data were processed

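The 27 libraries were grouped by the labels for accession, cross and stage. The deposited values are FPKM made by the authors, 1 table per library, with only genes above 0 listed (lowest 0.01), so a missing gene was taken as 0. Per the submitters' processing notes, TopHat2 and RSEM were used with the build TAIR10, which is a Col genome, for the hybrids too; versions, and any scaling between libraries, are not given in the sources used here. The FPKM sums were 746880 to 940207. Of 24607 gene IDs, 24511 matched RefSeq's TAIR10.1 annotation.

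Tests used limma 3.58.1 (R 4.3.3; trend, robust) on log2(FPKM + 1) of the 12 hybrid libraries, as deposited; a pseudocount of 1 understates changes of low genes. In a simulation of the 14 hour contrast over 17078 genes, 156 of 200 changed genes were called. The changes put in were larger than the size required for a call and only in genes above a set mean level. That share does not apply to changes near the required size or to low genes. Proteins and transcripts were compared with BLAST 2.17.0. Named genes are the pair, the genes sharing their pattern, the 5 most alike by correlation, the 5 neighbours on each side, the 5 best protein matches and the annotated families. The genes and lists were chosen with earlier results of these data known. Replicate libraries correlated at r 0.906 to 0.992 and shared at most 0.215% identical values.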

Additional observations from a re-analysis of the deposited data

Results flagged for a closer look

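The change from 14 to 24 hours differed between the crosses for both genes by a test of the difference itself. For AT2G05400 the change in LZy minus that in CZy was -3.93 on the log2 scale (limma adjusted p = 0.000306): it fell in LZy and rose in CZy. For AT3G14250 it was -1.69 (limma adjusted p = 0.0151), with a rise in CZy and no call in LZy.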

How the results depend on the processing

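Over all alternatives, 244 of 248 recomputed log2 changes of the pair kept their direction and their side of the threshold. In part the direction was fixed in advance. Leaving out a library outside a contrast, or changing only how the spread is estimated, keeps the log2 change itself. A kept side of the threshold can also hide an adjusted p that crossed 0.05, as for both genes at 24 hours. The call of AT3G14250 at 14 hours was lost with only the groups compared in the fit (1.27, adjusted p = 0.0868; alternatives that left out no replicate spanned 0.00663 to 0.0868) and without single libraries, where the difference ranged from 0.76 to 1.55. Its uncalled LZy change was -0.29 with quantile normalization. The number of genes called at 14 hours ranged from 1305 to 2503 with 1 library left out. The pattern was met by 5 genes with a floor of 5 FPKM and by 14 with any value above 0, and its mirror image by 2 with any value above 0 and by 1 with hybrid values under 1 FPKM allowed. The cause of these shifts was not tested. Scaling to equal FPKM sums moved the median change of all genes from 14 to 24 hours to -0.25 in LZy and -0.30 in CZy, from -0.05 and -0.09. Under it the called changes of the pair kept their direction. With the replicate number as a block, 2144 genes were called at 14 hours and no call of the pair changed. Deviations of same-numbered libraries correlated at -0.031 to 0.070, so little shift was shared across genes. Whether same-numbered libraries were handled together cannot be read from that. The fits of EC, 1C and 32C gave no value for the pair, since neither gene passed their filter.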
